A study of Mus musculus with 15 samples.

Results

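Dendritic cells take up antigen in the lung and carry it to lymph nodes, and 10 genes used to identify these cells or their subsets were followed here through lung injury in the mouse. The genes were chosen by name: Xcr1, Clec9a, Batf3 and Itgae for the conventional dendritic cells called cDC1, Cd209a for those called cDC2, Flt3 and Zbtb46 for conventional dendritic cells in general, Ccr7 and Fscn1 for mature migrating cells, and Siglech for plasmacytoid dendritic cells. They are 10 of the 33340 genes in the count table, and all 10 had enough reads to be among the 17457 genes tested. RNA-seq was carried out on polyadenylated RNA of whole lungs of C57BL/6 mice. Injury was caused by 1 dose of bleomycin, which breaks DNA and leads to fibrosis, given into the trachea at 5 U/kg, and the study's methods give male mice of 10 to 12 weeks for this model. Day 0 (4 libraries) held control lungs without bleomycin, and days 7 (4 libraries), 14 (4 libraries) and 21 (3 libraries) held lungs taken that long after the dose. These numbers follow the sample titles, while the series' design text speaks of 3 replicates at each time. Whether day 0 mice received a vehicle is not given in the sources used here. The labels do not say that each library came from a separate animal, so the p-values below measure only the spread between these libraries.

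Conventional dendritic cells arise from precursors that need the cytokine Flt3 ligand, and they divide into cDC1, which present antigen from dying cells to CD8 T cells, and cDC2, which mainly prime CD4 T cells. In the lung, cDC1 lie against the airway lining and carry the integrin CD103, the product of Itgae. On maturation either subset turns on the chemokine receptor CCR7, rearranges its actin skeleton and leaves through lymphatic vessels. Plasmacytoid dendritic cells are a separate lineage that makes type I interferon.

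Each library held from 15652008 to 18020661 counts, and levels are given as CPM, that is, reads scaled by library size and TMM factor. For day 0 replicate 4 the title says control and the treatment field says bleomycin, and the title was followed. The share of counts from mitochondrial genes was 2.03% to 2.15% in the day 7 libraries, 2.28% and 2.31% in day 0 replicates 1 and 2, and 4.04% to 4.22% in day 0 replicates 4 and 3. A fit with this share as a covariate is therefore given beside the day 7 results it changed. A gene was called changed at an adjusted p under 0.05 in edgeR and a fold change over 1.5.

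Fscn1 and Batf3 were higher and Clec9a was lower than at day 0 at all 3 times after bleomycin. Flt3 and Itgae were called higher at day 7 and not at days 14 or 21, and Siglech was called lower at day 21. At day 7, 4 of the 10 genes rose and 1 fell, where 8.78% of all genes tested rose and 7.36% fell. At day 14, 2 rose and 1 fell, against 12.0% and 11.2% of all genes. At day 21, 2 rose and 2 fell, against 12.4% and 10.1%. With the mitochondrial covariate the day 7 count was 2 higher and 0 lower, and among libraries with a share under 2.5% it was 2 higher and 1 lower. The median log2 fold change of the 10 genes was 0.58, -0.11 and -0.30 at days 7, 14 and 21, and over all genes tested it was 0.0096, 0.016 and 0.024. The 3 comparisons share the day 0 libraries. With glmTreat, which asks whether a fold change exceeds 1.5, the genes called numbered 1 at day 7, 3 at day 14 and 2 at day 21.

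**Figure D1:**
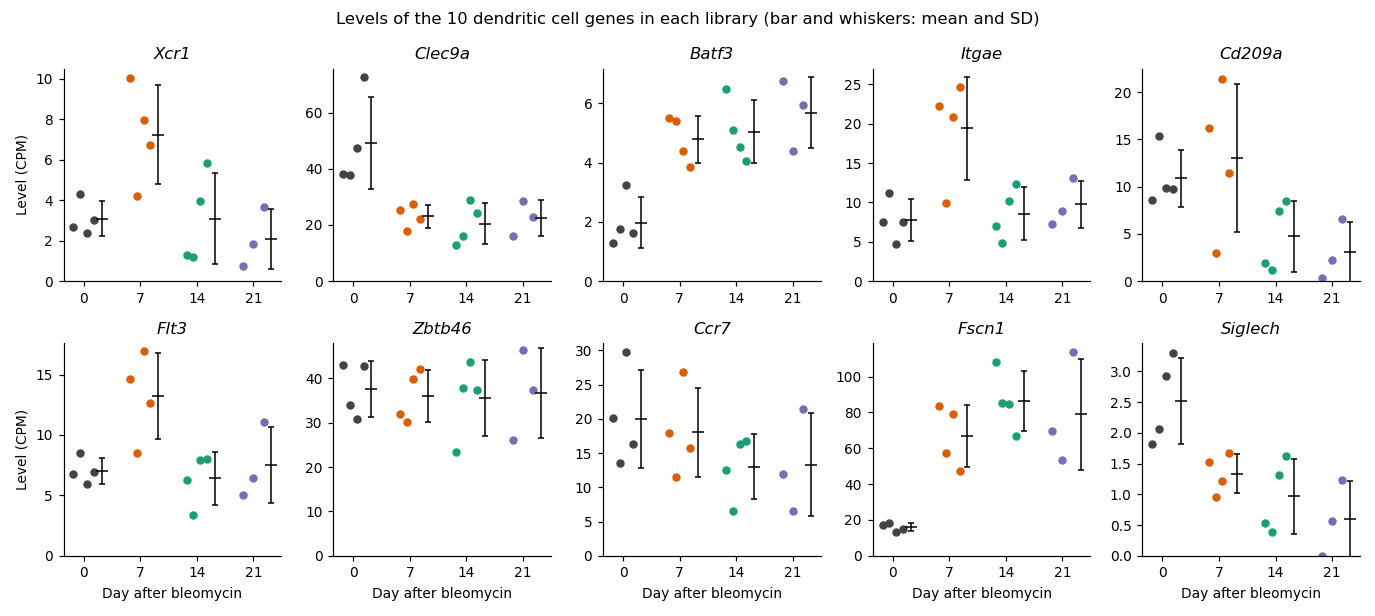
Level of each of the 10 genes in CPM (vertical axis, each panel with its own scale from 0) by day (horizontal axis), with 1 point per library and the group mean ± SD as a bar with whiskers. All later libraries lie above day 0 for Fscn1 and Batf3 and below it for Clec9a and Siglech, while Zbtb46 shows overlapping days.

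Xcr1 (ENSMUSG00000060509, chr9:123852315-123862029, minus strand) encodes the receptor for the chemokine XCL1 and marks cDC1. Its day 0 libraries read 2.65, 4.29, 2.35 and 3.01 CPM. At day 7 the values were 10.0, 4.19, 7.96 and 6.72 CPM, at day 14 1.30, 1.21, 3.95 and 5.86 CPM, and at day 21 0.742, 1.82 and 3.65 CPM. Replicate 2 of day 7 lay inside the day 0 range and the other 3 lay above it, and day 14 split into a pair below day 0, a library inside it and a library above it. Against day 0 the log2 difference was 1.23 ± 0.49 (SE) at day 7 (adjusted p = 0.0799), 0.00 at day 14 (adjusted p = 0.998) and -0.57 at day 21 (adjusted p = 0.475), none past the threshold. A fit to days 0 and 7 alone put the day 7 difference past it (adjusted p = 0.00934). Day 21 was 3.47-fold below day 7, with no overlap (log2 difference -1.80 ± 0.56, adjusted p = 0.0469), and it was the 1 gene of the 10 called, lower, in that comparison, where 4.34% of all genes were lower and 5.20% higher. That call was lost without day 7 replicate 1, 3 or 4 (adjusted p = 0.108, 0.0917 and 0.0733) or day 21 replicate 1 or 2 (adjusted p = 0.147 and 0.1249), and with the mitochondrial covariate, where the difference was -1.76 (adjusted p = 0.134). Without day 21 replicate 3 the difference was -2.50, and over all single libraries left out it ran from -2.50 to -1.42.

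Clec9a (ENSMUSG00000046080, chr6:129408862-129424763, plus strand) encodes a receptor for actin filaments exposed on dead cells and is used as a cDC1 marker. It read 38.1, 37.9, 47.4 and 72.7 CPM at day 0. It read 25.2, 17.7, 27.3 and 22.2 CPM at day 7, 12.998, 16.0, 28.8 and 24.1 CPM at day 14, and 16.0, 28.5 and 22.9 CPM at day 21. Every later library lay below every day 0 library, and the 3 later days overlapped each other. Clec9a fell 2.12-fold at day 7 (log2 difference -1.09 ± 0.26, adjusted p = 0.00855), 2.39-fold at day 14 (-1.26 ± 0.27, adjusted p = 0.00216) and 2.18-fold at day 21 (-1.13 ± 0.29, adjusted p = 0.0088). In whole lung, fewer cells of a type and less RNA per cell cannot be told apart, here and for every gene below. In the fit with the mitochondrial covariate the difference at day 7 was -0.67 (adjusted p = 0.143).

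The genome around Clec9a bears on how its reads can be counted. Its last base lies 8 bases from the end of Clec1a (chr6:129424772-129452000), which is read from the opposite strand, and 184 of its exon bases, 5.588% of them, are shared with Clec1b (chr6:129397297-129409335) on the same strand. The sources used here give no strand setting for the counting, so reads of Clec9a and Clec1a that run past their ends may not be separable. Both neighbours were looked at after the values of Clec9a were seen.

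Clec1a, a lectin receptor gene, was 151 ± 37.1 CPM (SD, n = 4) at day 0, 79.0 ± 10.7 at day 7 (n = 4), 58.9 ± 17.5 at day 14 (n = 4) and 81.4 ± 24.5 at day 21 (n = 3). It fell at each time (log2 difference -0.94, -1.36 and -0.89, adjusted p = 0.00772, 0.000367 and 0.0125). The mitochondrial covariate ended the day 7 call (-0.77, adjusted p = 0.0858), and that at day 21 was lost without day 21 replicate 1 (adjusted p = 0.0501). Clec1b fell at days 7 and 14 (-1.05 and -0.89, adjusted p = 0.0131 and 0.0213) and was -0.80 at day 21 (adjusted p = 0.055). Its day 7 call was lost with the covariate (-0.52, adjusted p = 0.208), and its day 14 call without day 0 replicate 4 or day 14 replicate 1 (adjusted p = 0.0744 and 0.0582). Day 0 replicate 4 was the highest day 0 library for both Clec9a (72.7 CPM) and Clec1a (206 CPM). The 10 endothelial genes summed to 3544 ± 269 CPM at day 0 and to 2506 ± 318, 2479 ± 543 and 2588 ± 259 CPM at days 7, 14 and 21, with 4, 3 and 1 of the 10 lower, beside 7.36%, 11.2% and 10.1% of all genes, so that the day 21 count was at the background share. The part of Clec1a, Clec1b or endothelial cells in the fall of Clec9a was not tested.

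**Figure D2:**
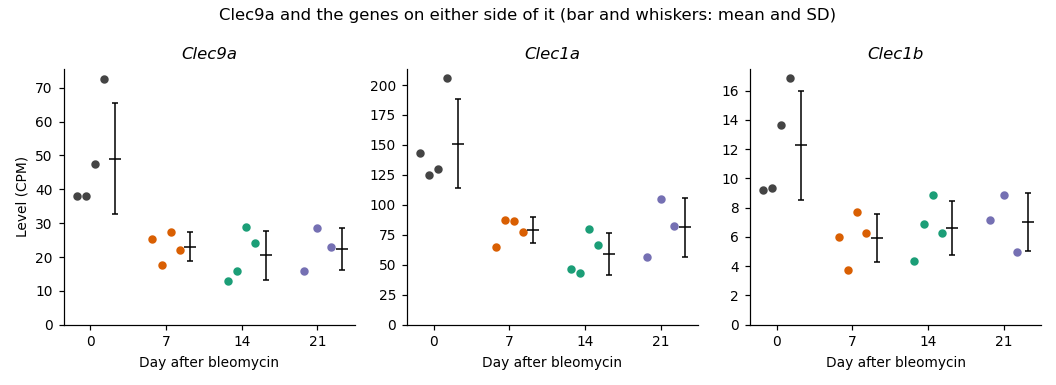
Level in CPM (vertical axes from 0, each with its own scale) by day for Clec9a and for Clec1a and Clec1b, the genes beside it in the genome, with 1 point per library and the mean ± SD. Each of the 3 genes has all its later libraries below its day 0 libraries, and in each of them day 0 replicate 4 is the highest.

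Batf3 (ENSMUSG00000026630, chr1:191097847-191108945, plus strand) encodes a transcription factor that cDC1 need for their development, and activated T cells also use it. The day 0 libraries read 1.29, 1.75, 3.24 and 1.62 CPM, on 20 to 51 reads each. The values were 5.49, 5.41, 4.39 and 3.86 CPM at day 7, 6.50, 5.10, 4.52 and 4.04 CPM at day 14, and 6.74, 4.39 and 5.94 CPM at day 21. All later libraries exceeded the highest day 0 library, replicate 3, and the later days overlapped. Batf3 rose 2.42-fold at day 7 (log2 difference 1.28 ± 0.28, adjusted p = 0.00434), 2.55-fold at day 14 (1.35 ± 0.28, adjusted p = 0.00176) and 2.87-fold at day 21 (1.52 ± 0.29, adjusted p = 0.00123). Among libraries with a mitochondrial share over 3.5%, the day 14 difference was 0.90 (adjusted p = 0.118).

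Itgae (ENSMUSG00000005947, chr11:73090583-73147446, plus strand) encodes the alpha chain of CD103, which binds E-cadherin and is carried by lung cDC1 and by T cells that live in epithelia. It stood at 7.51, 11.2, 4.70 and 7.48 CPM at day 0 and at 22.2, 9.88, 20.9 and 24.7 CPM at day 7. It then read 6.97, 4.78, 10.2 and 12.3 CPM at day 14 and 7.30, 8.89 and 13.1 CPM at day 21. Day 7 replicate 2 lay within day 0 and the other 3 day 7 libraries above every other library. Itgae rose 2.51-fold at day 7 (log2 difference 1.33 ± 0.33, adjusted p = 0.0104) and was 0.15 (adjusted p = 0.766) and 0.34 (adjusted p = 0.515) at days 14 and 21. From day 7 to day 14 it fell 2.26-fold (-1.18 ± 0.33, adjusted p = 0.0438), and with Flt3 it made 2 of the 10 genes lower in that comparison, with none higher, against 3.23% of all genes lower and 2.77% higher.

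The day 7 rise of Itgae was not called with the mitochondrial covariate (log2 difference 1.15, adjusted p = 0.0913) or among libraries with a share under 2.5% (1.03, adjusted p = 0.0658). The 10 T cell genes summed to 58.6 ± 12.7, 64.9 ± 25.2, 37.2 ± 9.46 and 40.1 ± 15.8 CPM at days 0, 7, 14 and 21. At the 3 later times 0, 3 and 0 of the 10 fell, beside 7.36%, 11.2% and 10.1% of all genes. None of them rose, beside 8.78%, 12.0% and 12.4% of all genes. The 5 genes of regulatory T cells summed to 14.3 ± 0.804, 21.6 ± 6.81, 17.2 ± 2.20 and 17.4 ± 4.55 CPM on the 4 days, with day 7 replicate 2 the lowest of its day as for Itgae. Of these 5, 1 rose at day 7, beside 8.78% of all genes, and their median log2 fold change was then 0.95. The part of T cells, regulatory ones included, in the levels of Itgae was not tested.

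Cd209a (ENSMUSG00000031494, chr8:3743397-3748984, minus strand), the mouse gene for a DC-SIGN-like lectin, marks a subset of cDC2 and dendritic cells derived from monocytes. It stood at 8.61, 15.4, 9.84 and 9.76 CPM at day 0. At day 7 it read 16.3, 3.01, 21.4 and 11.4 CPM, at day 14 1.89, 1.15, 7.44 and 8.45 CPM, and at day 21 0.371, 2.22 and 6.59 CPM. Day 7 lay on both sides of day 0, and every library of days 14 and 21 lay below day 0. The log2 difference from day 0 was 0.26 ± 0.67 at day 7 (adjusted p = 0.81), -1.20 ± 0.69 at day 14 (adjusted p = 0.198) and -1.83 ± 0.79 at day 21 (adjusted p = 0.093), and none passed the threshold. The day 21 libraries held 6 to 112 reads of Cd209a, and without replicate 3, the highest, the difference was -3.09 (adjusted p = 0.0256). It also passed at day 21 with no filter on low counts (-1.87, adjusted p = 0.0341).

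Flt3 (ENSMUSG00000042817, chr5:147330741-147400489, minus strand) encodes the receptor tyrosine kinase for Flt3 ligand on dendritic cells and their precursors. It was measured at 6.73, 8.53, 5.90 and 6.92 CPM at day 0. At day 7 it reached 14.7, 8.54, 16.9 and 12.7 CPM, and it read 6.26, 3.38, 7.95 and 8.03 CPM at day 14 and 5.01, 6.44 and 11.1 CPM at day 21. All 4 day 7 libraries lay above day 0, replicate 2 by a margin of 8.54 against 8.53 CPM, and all 4 day 14 libraries lay below day 7. Flt3 rose 1.88-fold at day 7 (log2 difference 0.91 ± 0.29, adjusted p = 0.0324) and was -0.13 (adjusted p = 0.767) and 0.096 (adjusted p = 0.848) at days 14 and 21. Between day 7 and day 14 it fell 2.06-fold (-1.04 ± 0.29, adjusted p = 0.0424).

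The day 7 call of Flt3 was lost with the mitochondrial covariate (log2 difference 0.73, adjusted p = 0.213), among libraries with a share under 2.5% (0.77, adjusted p = 0.0746), and without any one of 6 libraries. These were day 0 replicates 1, 3 and 4 (adjusted p = 0.0708, 0.0922 and 0.0802) and day 7 replicates 1, 3 and 4 (adjusted p = 0.0875, 0.0919 and 0.0504). The falls of Flt3 and Itgae from day 7 to day 14 were not called without day 7 replicate 1, 3 or 4 (adjusted p for Flt3 = 0.0973, 0.119 and 0.0847, for Itgae = 0.101, 0.0948 and 0.119). They were not called in a fit to the 2 groups alone either (adjusted p = 0.0574 and 0.0584). The same held without day 14 replicate 1, 2 or 3 (adjusted p for Flt3 = 0.0628, 0.107 and 0.0608, for Itgae = 0.0764, 0.121 and 0.0715) and with the covariate (log2 difference -0.81 for Flt3 and -0.92 for Itgae, adjusted p = 0.321 and 0.347).

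Flt3l, the gene for the ligand of this receptor, is made by many tissues and drives the growth of all dendritic cell lineages. Its day 0 libraries read 16.2, 17.4, 39.7 and 29.9 CPM. It read 6.06, 4.47, 9.72 and 5.29 CPM at day 7, 4.25, 7.40, 11.3 and 9.66 CPM at day 14, and 11.7, 7.69 and 7.06 CPM at day 21. No later library reached the lowest day 0 library, and the 2 highest day 0 libraries were those with the higher mitochondrial share. Flt3l fell at each time (log2 difference -2.01, -1.66 and -1.55, adjusted p = 0.001, 0.00182 and 0.00602), and with the covariate it was still called lower at all 3, although by less at day 7 (-1.19 in place of -2.01).

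Zbtb46 (ENSMUSG00000027583, chr2:181387762-181459426, minus strand) encodes a zinc finger repressor that, among blood cells, is found in conventional dendritic cells and their direct precursors, and that endothelial cells also express. The day 0 libraries read 43.1, 33.9, 30.8 and 42.8 CPM. Later values were 32.1, 30.2, 40.0 and 42.1 CPM at day 7, 23.4, 37.9, 43.7 and 37.3 CPM at day 14, and 26.2, 46.4 and 37.4 CPM at day 21. The 4 days overlapped. The log2 difference from day 0 was -0.062 ± 0.20, -0.083 ± 0.20 and -0.038 ± 0.22 at days 7, 14 and 21 (adjusted p = 0.849, 0.783 and 0.913). The endothelial sum given above fell over the same days, and the part of each cell type in the level of Zbtb46 was not tested.

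Ccr7 (ENSMUSG00000037944, chr11:99144196-99155077, minus strand) encodes the receptor that guides mature dendritic cells, as well as naive T cells and B cells, toward the chemokines CCL19 and CCL21. It was at 20.1, 13.5, 29.8 and 16.3 CPM at day 0, 17.95, 11.6, 26.9 and 15.7 CPM at day 7, 12.47, 6.57, 16.4 and 16.7 CPM at day 14, and 11.997, 6.50 and 21.5 CPM at day 21. The days overlapped, and replicate 2 was the lowest library on each of the 4 days. The log2 difference was -0.15 ± 0.36, -0.61 ± 0.37 and -0.58 ± 0.40 at days 7, 14 and 21 (adjusted p = 0.801, 0.218 and 0.297). In an edgeR fit with replicate number as a block, Ccr7 was called lower at days 14 and 21 (-0.63 and -0.66, adjusted p = 0.0136 and 0.0201). The labels do not say that libraries of the same number belong together. The 7 B cell genes summed to 154 ± 42.6, 98.4 ± 53.0, 67.8 ± 36.9 and 45.2 ± 11.5 CPM at days 0, 7, 14 and 21. At the 3 later times 0, 5 and 6 of the 7 were lower, beside 7.36%, 11.2% and 10.1% of all genes. The part of B cells in the level of Ccr7 was not tested.

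Fscn1 (ENSMUSG00000029581, chr5:142960343-142973185, plus strand) encodes fascin, an actin-bundling protein of mature dendritic cells that mesenchymal and endothelial cells and neurons also make. It showed the greatest rise of the 10 genes. Its day 0 libraries read 17.0, 18.3, 13.3 and 14.95 CPM. Day 7 libraries read 83.4, 57.3, 79.3 and 47.6 CPM, day 14 libraries 108, 85.5, 84.5 and 67.1 CPM, and day 21 libraries 69.8, 53.6 and 114 CPM. The lowest later library was far above the highest day 0 library, and the later days overlapped. Fscn1 rose 4.22-fold at day 7 (log2 difference 2.08 ± 0.24, adjusted p = 4.87e-05), 5.44-fold at day 14 (2.44 ± 0.24, adjusted p = 4.39e-06) and 4.98-fold at day 21 (2.32 ± 0.25, adjusted p = 1.27e-05). These 3 calls were kept in every alternative fit.

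The sequence just before the start of Fscn1 is shown because it is the gene with the greatest rise. The 238 bases at chr5:142960105-142960342 (plus strand, RefSeq promoter table on GRCm38.p6), which end before the first base of the gene, are:
Fscn1: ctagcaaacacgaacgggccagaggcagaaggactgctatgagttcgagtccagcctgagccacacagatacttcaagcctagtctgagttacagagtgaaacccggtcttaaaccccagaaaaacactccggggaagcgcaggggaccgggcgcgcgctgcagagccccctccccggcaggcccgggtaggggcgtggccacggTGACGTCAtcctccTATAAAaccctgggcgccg
The capitals mark TGACGTCA, the letters of a cyclic AMP response element, and TATAAA, the letters of a TATA box. They begin 45 and 31 bases before the RefSeq start.

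RefSeq windows from 250 bases before to 50 bases after the start were found for 8 of the 10 genes, all but Itgae and Ccr7. On either strand, TGACGTCA was in the Fscn1 window and in none of the other 7, and 1.79% of the 32851 windows of all genes held it. TATAAA was in 4 of the 8 and in 13.6% of all windows, and while it began 31 bases before the start in Fscn1, it began 160, 226 and 184 bases before it in Xcr1, Clec9a and Cd209a. TGANTCA, the letters of an AP-1 site of the kind BATF proteins bind, was in 1 of the 8 (Zbtb46, beginning 61 bases before the start) and in 7.81% of all windows. The motifs were chosen after the Fscn1 sequence was read, and a match of letters is not a measured binding site.

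Siglech (ENSMUSG00000051504, chr7:55768178-55778925, plus strand) encodes a lectin that binds sialic acid and marks mouse plasmacytoid dendritic cells. It had few reads, from 59 in day 0 replicate 4 to 0 of 15944121 in day 21 replicate 1, where a count of 0 allows up to 3 reads, or 0.188 CPM without TMM scaling. In CPM the libraries read 1.81, 2.06, 2.92 and 3.29 at day 0, 1.53, 0.949, 1.21 and 1.66 at day 7, 0.532, 0.383, 1.32 and 1.63 at day 14, and 0, 0.570 and 1.24 at day 21. All libraries after bleomycin lay below all day 0 libraries. The log2 difference was -0.91 ± 0.58 at day 7 (adjusted p = 0.262) and -1.38 ± 0.59 at day 14 (adjusted p = 0.087), and at day 21 Siglech fell 4.13-fold (-2.05 ± 0.69, adjusted p = 0.0341). The day 21 call was lost without day 0 replicate 3 or 4 (adjusted p = 0.0601 and 0.0709), without day 21 replicate 1 or 2 (adjusted p = 0.0575 and 0.0832) and in a fit to the 2 groups alone (adjusted p = 0.0666). Without day 21 replicate 1 the day 21 difference was -1.51 and without replicate 3 it was -3.12. In fits to 2 groups alone, days 7 and 14 did pass (adjusted p = 0.033 and 0.0356), and with DESeq2 day 14 did (adjusted p = 0.0408).

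**Figure D3:**
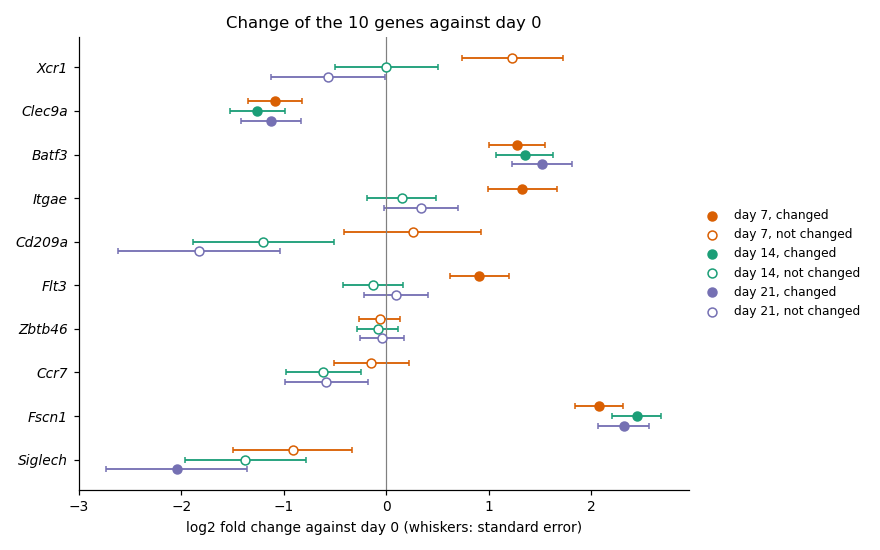
log2 fold change against day 0 (horizontal axis) with its standard error for each of the 10 genes (rows) at days 7, 14 and 21 (colours), filled where the gene was called changed. Fscn1 lies farthest to the right at all 3 days, Flt3 and Itgae are filled at day 7 and open at days 14 and 21, and Cd209a and Siglech have the widest error bars and lie left of 0 at days 14 and 21.

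Ratios of reads within a library do not depend on how libraries are scaled, and they are given from raw reads, while log2 ratios have 0.5 added to each count. The ratio of Cd209a to Xcr1 reads, a cDC2 gene against a cDC1 gene, was 3.24 to 4.19 in the 4 day 0 libraries. It was 0.72 to 2.69 at day 7, 0.947 to 1.88 at day 14 and 0.5 to 1.81 at day 21. All 11 later libraries thus lay below all day 0 libraries. The mean log2 ratio was 1.81 ± 0.17 (SD) at day 0 and lower by 1.21, 1.34 and 1.75 at days 7, 14 and 21, each with p = 0.0286 in an exact two-sided permutation test. That is the smallest p these group sizes allow, and after adjustment over the 9 ratio tests it was 0.0514, which missed the threshold.

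Clec9a and Xcr1 are both used for cDC1. The ratio of their reads varied within and between days, and none of its tests passed the threshold after adjustment. Reads of Clec9a may not be separable from those of Clec1a, as given above. Clec9a had 8.83 to 24.1 reads per Xcr1 read at day 0, 2.51 to 4.23 at day 7, 4.11 to 13.2 at day 14 and 6.27 to 21.5 at day 21. Day 7 alone lay wholly below day 0, with a log2 difference of -2.24 (exact permutation p = 0.0286, adjusted 0.0514). Days 14 and 21 differed by -0.996 (exact permutation p = 0.114, adjusted 0.171) and -0.31 (exact permutation p = 0.657). Itgae had 2 to 2.83 reads per Xcr1 read at day 0, 2.21 to 3.67 at day 7, 2.103 to 5.36 at day 14 and 3.60 to 9.83 at day 21. This ratio differed by 0.12 at day 7 (exact permutation p = 0.6), 0.41 at day 14 (exact permutation p = 0.286) and 1.16 at day 21, where the groups did not overlap (exact permutation p = 0.0286, adjusted 0.0514).

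**Figure D4:**
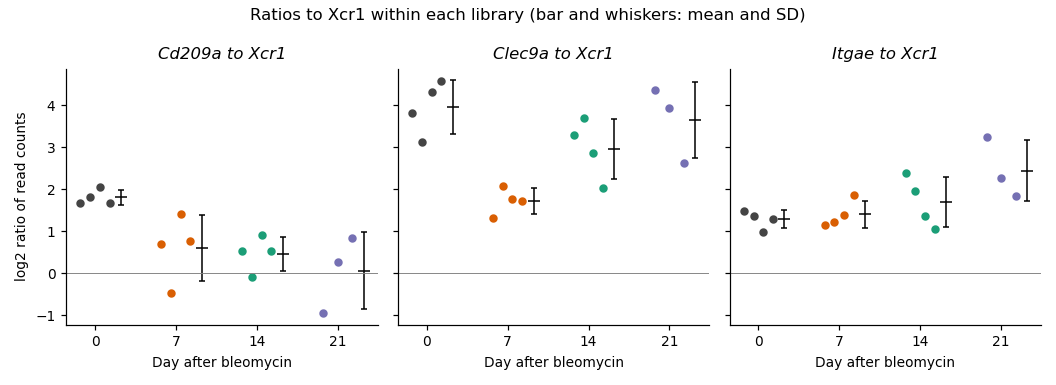
log2 ratio of read counts of Cd209a, Clec9a and Itgae to Xcr1 (vertical axis, shared by the panels) by day, with 1 point per library and the mean ± SD. The Cd209a ratio lies below day 0 in all later libraries, the Clec9a ratio is lowest at day 7, and the Itgae ratio at day 21 lies above day 0.

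Divided by exon length, the levels could be compared between genes. At day 0 Clec9a was the highest at 14.9 ± 4.97 CPM per kb, followed by Ccr7 at 10.1 ± 3.60, Cd209a at 6.88 ± 1.91, Fscn1 at 5.27 ± 0.730 and Zbtb46 at 4.43 ± 0.736. Well below came Itgae at 1.68 ± 0.581, Batf3 at 1.24 ± 0.540, Flt3 at 1.14 ± 0.178, Siglech at 0.745 ± 0.207 and Xcr1 at 0.691 ± 0.192. Between neighbours in this order the libraries overlapped everywhere but between Zbtb46 and Itgae. The level of Clec9a carries the doubt about reads of Clec1a given above. From day 7 on Fscn1 was first, at 22.2 ± 5.72, 28.6 ± 5.56 and 26.2 ± 10.3 CPM per kb at days 7, 14 and 21, with no library of the second gene reaching it. Siglech was last on these days, at 0.395, 0.285 and 0.178 CPM per kb, and it was separated from Xcr1 at day 7 and overlapped it at days 14 and 21.

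Several of the genes were low and high in the same libraries of a day. Day 14 replicates 1 and 2 had the lowest day 14 values of Xcr1, Clec9a, Cd209a, Flt3, Itgae, Ccr7 and Siglech, and replicates 3 and 4 the highest. Day 21 replicate 1 was lowest and replicate 3 highest for Xcr1, Cd209a, Flt3, Itgae and Siglech. Clec9a and Zbtb46 were also lowest in day 21 replicate 1 but highest in replicate 2. Day 7 replicate 2 was lowest of its day for Xcr1, Clec9a, Cd209a, Flt3, Itgae, Zbtb46, Ccr7 and Siglech. Markers of other white blood cells shared part of this order. Ptprc, which encodes CD45 on all white blood cells, read 120, 103, 167 and 171 CPM in day 14 replicates 1 to 4, the NK cell genes summed to 3.49, 5.93, 17.3 and 18.5 CPM and the B cell genes to 30.8, 42.0, 105 and 93.3 CPM. Ptprc was also lowest of its day in day 7 replicate 2 and highest in day 21 replicate 3, and the part of white blood cell content in the order was not tested. Batf3 did not share this order, and its day 14 replicate 1 and day 21 replicate 1 were the highest of their days.

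Across the 15 libraries the closest pair of profiles among the 10 genes was Flt3 and Itgae, with a root mean square difference of 0.280 in log2 CPM after each gene was centred on its mean. Over 15344 genes with a mean of at least 1 CPM, the genes nearest to Xcr1 were Kmo (0.345), Mgl2 (0.361) and Plbd1 (0.448), against a median of 1.03 for all genes. Nearest to Cd209a were Siglech (0.714), Ms4a4c (0.724) and Hepacam2 (0.729), against a median of 1.52. Nearest to Flt3 were Igsf10 (0.213), Phf11b (0.225) and Sept3 (0.255), against 0.656, and nearest to Ccr7 were Stap1 (0.225), Cd83 (0.263) and P2ry10 (0.276), against 0.677. For Siglech the nearest were Sgpp2 (0.534), Tmem163 (0.538) and Kctd21 (0.542), against 1.19. The libraries of a day share their group mean in this measure, so it describes these 15 libraries.

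Further genes were taken from lists of 72 genes, of which 66 were tested. Most are genes of the same cells, but a list of 6 genes, of ligands and E-cadherin among others, does not mark these cells and is part of the counts. At day 7, 17 of the 66 rose and 3 fell, at day 14 19 rose and 4 fell, and at day 21 18 rose and 5 fell. These are 25.8% and 4.55%, 28.8% and 6.06%, and 27.3% and 7.58% of the list, where 8.78% and 7.36%, 12.0% and 11.2%, and 12.4% and 10.1% of all genes tested rose and fell. The median log2 fold change was 0.38, 0.16 and 0.12, beside 0.0096, 0.016 and 0.024 for all genes. The counts at day 7 rested in part on single libraries, being 12 without day 0 replicate 4 and 12 without day 7 replicate 1 in place of 20. They were also 12 with the mitochondrial covariate.

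Of 11 further cDC1 genes, 3, 2 and 1 rose at days 7, 14 and 21 and 0, 0 and 1 fell, with a median log2 fold change of 0.52, 0.051 and -0.21. The other 8, 9 and 9 were not called. The 11 genes summed to 532 ± 54.6 CPM at day 0 and to 641 ± 87.4, 540 ± 51.3 and 491 ± 105 CPM later. At day 7 the share higher was 27.3%, beside 8.78% of all genes. At day 21 the 9.09% higher and 9.09% lower lay near the 12.4% and 10.1% of all genes, as did the 18.2% higher at day 14 near 12.0%. Rab7b, a small GTPase gene, rose at all 3 times, from 16.9 ± 2.60 CPM at day 0 to 25.8 ± 4.10, 26.4 ± 6.81 and 34.2 ± 6.04 (adjusted p = 0.0254, 0.0148 and 0.00129). Nfil3, a transcription factor that cDC1 development needs, rose at days 7 and 14 (log2 difference 0.79 and 0.88, adjusted p = 0.0462 and 0.0219) and was 0.65 at day 21 (adjusted p = 0.108). Its day 14 call was lost without day 0 replicate 2, 3 or 4 (adjusted p = 0.0509, 0.054 and 0.0619) or day 14 replicate 1 (adjusted p = 0.0735), and its day 7 call without any one of the 4 day 0 libraries or of day 7 replicates 2 and 4 (adjusted p between 0.0611 and 0.187). Rab7b at day 14 was not called among libraries with a mitochondrial share over 3.5% (adjusted p = 0.0824) or without day 0 replicate 3 or day 14 replicate 1 (adjusted p = 0.0518 and 0.0652), and at day 7 without day 0 replicates 3 and 4 or day 7 replicates 1 and 2 (adjusted p = 0.0883, 0.0545, 0.0863 and 0.0702). With the mitochondrial covariate the day 7 differences of Rab7b and Nfil3 were 0.36 and 0.65 (adjusted p = 0.247 and 0.239). In all, the day 7 call of Nfil3 was lost in 14 of 20 alternatives, among them RLE factors (adjusted p = 0.0539), voom (0.108), a mean of at least 1 CPM (0.0529) and the 2 groups alone (0.0666), and that of Rab7b in 11 of 20, among them RLE factors, DESeq2 and the 2 groups alone, where its fold fell below 1.5.

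Of 8 further cDC2 genes tested, 2, 3 and 4 rose and none fell, with medians of 0.64, 0.66 and 0.50. The shares higher were 25%, 37.5% and 50%, beside 8.78%, 12.0% and 12.4% of all genes, of which 7.36%, 11.2% and 10.1% fell. Clec4a2, a lectin gene, went from 9.87 ± 1.45 CPM at day 0 to 34.04 ± 12.04 at day 14 and 37.1 ± 9.001 at day 21 (adjusted p = 0.000242 and 0.000254). Itgam, which encodes CD11b, and Sirpa, which encodes a receptor for CD47, also rose at day 14 (log2 difference 1.35 and 0.89, adjusted p = 0.00698 and 0.000785). The other 5 genes of the list were not called at day 14, Clec10a at 1.17, Mgl2 at 0.44, Esam at -0.16, Irf4 at -0.48 and Klf4 at -0.64. The genes that rose at day 7 were Clec10a and Mgl2 (log2 difference 1.58 and 1.40, adjusted p = 0.0235 and 0.0229), 2 lectin genes named after their values were seen, for which alternatives were not run. Clec4a2, Itgam and Sirpa are all shared with monocytes and macrophages. Of 10 monocyte and macrophage genes, 3, 5 and 4 rose at the 3 times, or 30%, 50% and 40%, beside 8.78%, 12.0% and 12.4% of all genes. Among them was Cd68, a lysosomal protein gene, which went from 43.0 ± 5.34 CPM to 109 ± 23.3, 172 ± 28.5 and 160 ± 50.6. The sum of the 10 genes was 7493 ± 503 CPM at day 0 and 6080 ± 1436, 7922 ± 1695 and 5400 ± 1668 CPM at days 7, 14 and 21. The part of those cells in the cDC2 genes was not tested.

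Of 8 genes shared by conventional dendritic cells, 2 rose at each time and 0, 2 and 1 fell, with medians of 0.45, 0.061 and -0.13. Of this list 25% was higher at each time, beside 8.78%, 12.0% and 12.4% of all genes. At day 14 25% was lower, beside 11.2% of all genes, and the 1 of 8 lower at day 21 lay near the 10.1% of all genes lower then. Itgax, which encodes CD11c and is also high in alveolar macrophages, stood at 68.7 ± 8.37 CPM at day 0 and at 120 ± 32.3, 169 ± 34.8 and 149 ± 85.1 later (adjusted p = 0.039, 0.00196 and 0.00844). Its day 7 call was lost without any one of day 0 replicates 1 to 4 or of day 7 replicates 1 and 3 (adjusted p between 0.0677 and 0.14), and with the covariate, where the log2 difference was 0.79 beside 0.81 without it (0.169). The day 21 call was lost without day 21 replicate 3, where the log2 difference was 0.50 in place of 1.12 (adjusted p = 0.114). The 7 alveolar macrophage genes summed to 1007 ± 163 CPM at day 0 and to 865 ± 305, 1792 ± 1166 and 1685 ± 615 CPM later. Of these 7, 3, 4 and 5 were lower, beside 7.36%, 11.2% and 10.1% of all genes. Higher were 0, 1 and 0, beside 8.78%, 12.0% and 12.4%, so that the 14.3% at day 14 lay near the share of all genes. The part of alveolar macrophages in the level of Itgax was not tested. Htr7, a serotonin receptor gene, rose from 0.323 ± 0.140 CPM to 2.32 ± 0.852, 1.04 ± 0.326 and 1.44 ± 0.641 (adjusted p = 0.000518, 0.011 and 0.00326). Dpp4, which encodes the surface peptidase CD26 and is widely expressed, fell at days 14 and 21 (log2 difference -1.01 and -1.40, adjusted p = 0.0199 and 0.00645), and Cbfa2t3, a corepressor gene, fell at day 14 (-0.77, adjusted p = 0.0113). Without day 14 replicate 2 the fall of Dpp4 at day 14 was -0.91 (adjusted p = 0.0591). Among libraries with a mitochondrial share over 3.5%, Dpp4 and Cbfa2t3 were not called at day 14 (-0.71 and -0.56, adjusted p = 0.0887 and 0.0504).

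Of the 21 genes of maturation that were tested, 8, 8 and 7 were higher and 2, 1 and 1 lower, with medians of 0.43, 0.54 and 0.39. The other 11, 12 and 13 were not called. All 22 genes of the list summed to 699 ± 55.7 CPM at day 0 and to 693 ± 37.8, 681 ± 39.4 and 679 ± 38.1 CPM later. The genes named below were picked by the size of their change at day 14, and all of them rose. The shares were 38.1%, 38.1% and 33.3% higher, beside 8.78%, 12.0% and 12.4% of all genes, and 9.52%, 4.76% and 4.76% lower, beside 7.36%, 11.2% and 10.1%. Ccl17, which encodes a chemokine that dendritic cells and macrophages make to draw CCR4-bearing T cells, read 3.11, 5.32, 2.79 and 4.02 CPM at day 0 and 24.4, 23.4, 22.3 and 20.4 CPM at day 7. It was at 9.28, 9.89, 10.9 and 11.2 CPM at day 14 and at 8.10, 6.61 and 6.82 CPM at day 21. No later library overlapped day 0, and the day 7 libraries were above all others (log2 difference from day 0 2.57, 1.43 and 0.91, adjusted p = 8.09e-07, 3.40e-05 and 0.00233). The costimulatory genes Cd80 and Cd86, which macrophages also express, rose at each time, Cd80 from 1.97 ± 0.172 CPM to 6.66 ± 0.747, 5.93 ± 1.48 and 6.89 ± 2.42 (adjusted p = 0.000276, 0.000256 and 0.000168) and Cd86 from 6.77 ± 0.620 CPM to 15.6 ± 2.22, 17.9 ± 5.08 and 17.3 ± 3.83 (adjusted p = 0.000628, 8.07e-05 and 0.000217). Marcksl1, which encodes a protein that binds actin at the membrane, rose as well (log2 difference 1.07, 1.41 and 1.09, adjusted p = 0.00514, 0.000418 and 0.00452).

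Of 14 further plasmacytoid genes tested, 2, 3 and 3 rose and 0, 0 and 1 fell, with medians of 0.087, -0.035 and -0.018. The shares higher were 14.3%, 21.4% and 21.4%, beside 8.78%, 12.0% and 12.4% of all genes. The shares lower were 0%, 0% and 7.14%, beside 7.36%, 11.2% and 10.1%. Lair1 at day 7 (log2 difference 0.84, adjusted p = 0.0242) lost its call in 10 of 20 alternatives, among them voom (adjusted p = 0.0712) and the mitochondrial covariate (0.64, adjusted p = 0.201). The genes that rose by day 14 were Lair1, an inhibitory collagen receptor, Tlr7, a sensor of single-stranded RNA, and Runx2, a transcription factor (log2 difference 1.53, 0.90 and 0.70, adjusted p = 0.000347, 0.018 and 0.0154). Lair1 and Tlr7 are also made by monocytes and macrophages and Runx2 by bone-forming cells and other cells. The calls of Tlr7 and Runx2 at day 14 were lost without day 14 replicate 1 (adjusted p = 0.0848 and 0.0665), that of Runx2 also among libraries with a mitochondrial share over 3.5% (adjusted p = 0.123), and that of Tlr7 also without day 0 replicate 3 or 4 (adjusted p = 0.0544 and 0.0532).

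The last list held 6 genes: Flt3l, Xcl1, Ccl19 and Ccl21a for ligands of these receptors, the cytokine gene Csf2, and Cdh1 for E-cadherin. Xcl1 and Ccl19 had at most 4 and 12 reads in any library and were not tested. Of the other 4, Flt3l fell as given above, and Csf2 and Cdh1 were not called against day 0. Ccl21a, a ligand of CCR7 made by lymphatic endothelium, stood at 78.2 ± 6.14 CPM at day 0 and 170.8 ± 17.6 at day 21 (log2 difference 1.13, adjusted p = 0.00131). At day 14 Ccl21a rose by 0.60 (adjusted p = 0.0326), a call lost without any one of the 4 day 0 libraries (adjusted p = 0.0661, 0.0935, 0.0692 and 0.056) or of day 14 replicates 2 and 4 (adjusted p = 0.143 and 0.0742). That call was lost in 13 of 20 alternatives, among them voom (adjusted p = 0.051), the 2 groups alone (adjusted p = 0.0503) and, with a fold under 1.5, no filter on low counts and the covariate. Ccl21a has near-identical copies in the mouse genome and reads with several alignments were left out, so its level is uncertain. Ptprc was 185 ± 37.7 CPM at day 0 and 141 ± 16.3, 140.1 ± 34.02 and 131 ± 58.1 later, with no call.

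**Figure D5:**
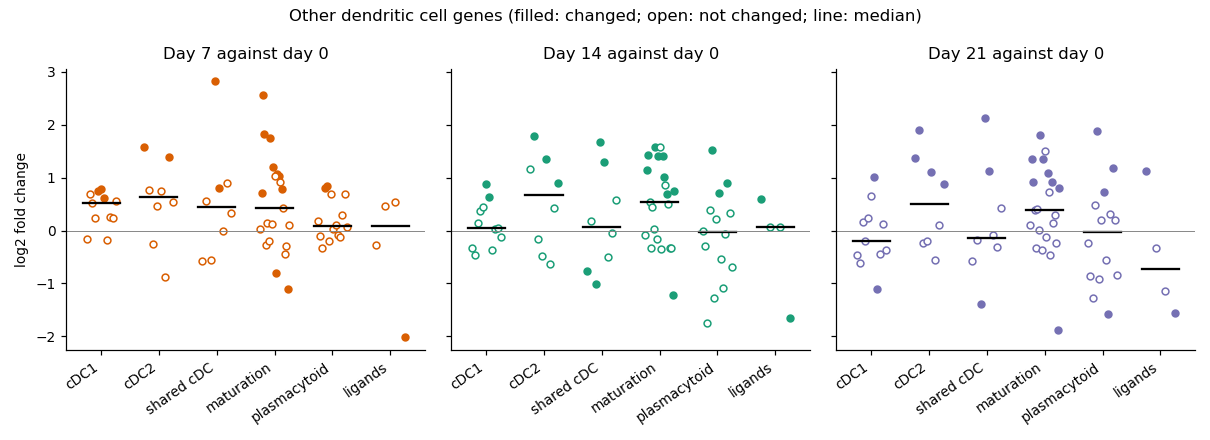
log2 fold change against day 0 (vertical axis, shared) of the tested genes in 6 lists of other dendritic cell genes and of ligands (horizontal axis) at days 7, 14 and 21, 1 point per gene, filled where called changed, with the list median as a line. Most filled points of the cDC2 and maturation lists lie above 0 at each day, and Flt3l is the lowest point of the ligand list.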

How the data were processed

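The authors trimmed reads with TrimGalore, aligned them to mm10 (GRCm38) with HISAT2 2.1.0, excluded multi-mapped reads and deposited raw counts per Ensembl gene from HTSeq 0.6.0, without normalization. The submitters' notes also name DESeq2 1.40.2. The annotation release and strand setting are not given in the sources used here. Symbols, coordinates (1-based, GRCm38) and exon lengths came from GENCODE M21, which matched 33267 of 33340 identifiers.

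Day came from sample titles. The counts were tested with edgeR 4.0.16 (R 4.3.3) quasi-likelihood fits on all 15 libraries with day as factor, filterByExpr (17457 genes kept) and TMM, checked on simulated data. Adjusted p is Benjamini-Hochberg over all genes tested. Standard errors are on the log2 scale. Alternatives were DESeq2 1.42.0, limma 3.58.1 voom, other scalings, filters and covariates, 2-group fits, glmTreat, a replicate block and leaving out each library. Floors for a count of 0 cover counting error only.

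The genes named were the 10 members, up to 4 changed genes per further list (3 for other cells) with the greatest change at day 14 and at least 1 CPM, and the 3 nearest profiles of 5 members. Members and lists were chosen with earlier results of these data known.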

Additional observations from a re-analysis of the deposited data

Results flagged for a closer look

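The course of 3 genes differed between times after bleomycin by a test of the difference itself, in edgeR over all genes. Flt3 was lower at day 14 than at day 7 by a log2 difference of -1.04 (adjusted p = 0.0424, all 4 day 14 libraries below all 4 of day 7). Itgae was lower at day 14 than at day 7 by -1.18 (adjusted p = 0.0438, 2 of 4 day 14 libraries below all of day 7). Xcr1 was lower at day 21 than at day 7 by -1.80 (adjusted p = 0.0469, 3 of 3 day 21 libraries below all of day 7). The mitochondrial share was lower at day 7 than in every day 14 library but replicate 1 and than in all day 21 libraries, and in the fit with this share as a covariate the differences were -0.81 for Flt3, -0.92 for Itgae and -1.76 for Xcr1 (adjusted p = 0.321, 0.347 and 0.134), none of them called. The check for outlying libraries, made in groups of 4 only, flagged none in 39 groups of values. It did not cover day 21, which has 3 libraries. Day 7 replicate 2, which it did not flag, read 9.88 CPM for Itgae beside 20.9 to 24.7 CPM in the other day 7 libraries.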

How the results depend on the processing

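Of the calls of the 10 genes against day 0, those of Fscn1 at all 3 times, of Clec9a at day 14 and of Batf3 at day 21 were kept in every alternative run. The number of the 10 genes called at day 7 (5) was 1 with glmTreat, 2 with the mitochondrial covariate and 3 in libraries under a 2.5% share, and it was highest, 7, in a fit to the 2 groups. At day 14 (3) and day 21 (4), glmTreat gave 3 and 2. From day 7 to day 14 (2 called), the count was 0 in a fit to the 2 groups, with glmTreat and with the covariate, and 0 to 2 when leaving out libraries. From day 7 to day 21 (1 called), it was 0 with total count scaling, glmTreat and the covariate, 2 with DESeq2, 3 without a filter, and 0 to 3 when leaving out libraries. Between days 14 and 21 no gene was called in any fit. The other dendritic cell genes called, the ligand list included (20, 23 and 23), were 6, 9 and 11 with glmTreat, 12 at day 7 with the covariate and 12 to 21 at day 7 when leaving out libraries. The cause was not tested.

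The values do not settle whether replicate numbers pair the libraries. Deviations from the group mean correlated at -0.245 to 0.397 (median 0.0419) in 21 pairs of libraries of the same number. In 63 pairs of other numbers they correlated at -0.328 to 0.260 (median -0.0314). Of 15 libraries, 9 were closest to their own number. With replicate number as a block, Ccr7 was called lower at days 14 and 21 (adjusted p = 0.0136 and 0.0201), as were Siglech at day 14 (0.0457) and Cd209a at day 21 (0.0468), and Xcr1 from day 7 to 21 was no longer called (0.0532). In these fits 5 of the 10 genes were called at day 14, 6 at day 21 and 0 from day 7 to day 21, and Xcr1 at day 14 was -0.20, Clec9a from day 7 to 21 was 0.046 and Ccr7 from day 14 to 21 was -0.037.

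Signs turned only for differences that were not called. Xcr1 at day 14 (0.00) was -0.017 with RLE factors, -0.019 with DESeq2, -0.27 with voom, -0.023 without a filter, -0.027 at a mean of at least 1 CPM and -0.025 in the 2 groups. With voom, Cd209a at day 7 was -0.023 and Ccr7 from day 14 to 21 was -0.063. With the covariate, Zbtb46 was 0.036 at day 7 and -0.085 from day 7 to 21, Batf3 from day 7 to 14 was -0.012, and at day 7 Tlr7 was -0.053 and Runx2 -0.0996. Runx2 at day 7 was -0.0025 at a mean of at least 1 CPM, and Zbtb46 from day 7 to 21 was -0.00028 without a filter. Among libraries under 2.5%, Ccr7 at day 7 was 0.083, and among those over 3.5%, Zbtb46 at day 14 was 0.092.

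Leaving out 1 library gave these ranges. Against day 0, Ccr7 at day 7 was -0.41 to 0.089, Cd209a at day 7 -0.092 to 0.59, Runx2 at day 7 -0.039 to 0.077, Zbtb46 -0.17 to 0.015, -0.20 to 0.051 and -0.28 to 0.12 at days 7, 14 and 21, Flt3 -0.26 to 0.058 and -0.34 to 0.28 at days 14 and 21, Itgae at day 14 -0.075 to 0.36 and Xcr1 at day 14 -0.51 to 0.24. From day 7, Batf3 at day 14 was -0.072 to 0.17, Zbtb46 -0.13 to 0.14 and -0.20 to 0.20 at days 14 and 21, Clec9a at day 21 -0.27 to 0.14 and Fscn1 at day 21 -0.15 to 0.43. From day 14 to 21, Ccr7 was -0.51 to 0.35, Clec9a -0.085 to 0.34, Flt3 -0.18 to 0.44, Fscn1 -0.51 to 0.073, Itgae -0.096 to 0.42 and Zbtb46 -0.17 to 0.23. The log2 ratio to Xcr1 ranged from -0.67 to 0.19 for Clec9a at day 21 and from -0.035 to 0.21 for Itgae at day 7. Cd209a, Siglech and Xcr1 had the widest standard errors of the 10 genes against day 0, and a difference that missed the threshold in them was not shown to be absent.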
